A study of Homo sapiens with 8 samples.

Results

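APOBEC3B (A3B) is a DNA cytosine deaminase that turns cytosine in single-stranded DNA into uracil. The genes described here encode enzymes that keep uracil out of DNA or repair it once it is there. They are the uracil glycosylases UNG and SMUG1, the mismatch-directed glycosylases TDG and MBD4, the endonuclease APEX1, the gap-filling polymerase POLB, the scaffold XRCC1, the DNA ligases LIG3 and LIG1, and the dUTPase DUT. They were chosen by symbol for this role, with earlier results of these data known. All 10 were found among the 19952 symbols listed for each library.

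In base excision repair, a glycosylase cuts the damaged base from its sugar, APEX1 nicks the strand at the empty site, POLB fills the gap, and LIG3 with XRCC1 or LIG1 seals it. DUT acts earlier, by breaking down dUTP before a polymerase can build it into DNA. UNG, LIG1 and DUT are known to be most active in cells that copy their DNA, where they work near the replication fork.

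RNA was sequenced from 2 human cell lines labelled as uveal melanoma, 92.1 and MEL290. In 92.1, cells with a short hairpin RNA against A3B (shA3B) were compared with shCtrl cells, whose vector is called empty in the study's methods. In MEL290, cells that overexpress A3B (A3B OE) were set against NC, the negative control. There were 8 libraries, 2 for each of 4 groups. The constructs were brought in with lentiviruses and the cells were selected with puromycin. The labels give neither which of the hairpins the sequenced 92.1 cells carried nor whether the replicates were separate cultures, so p-values measure the spread between these libraries, which may be technical.

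Levels are given as FPKM, a count of sequenced fragments scaled to the length of the transcript and the size of the library. Fold changes are differences of log2(FPKM + 1), tested with limma over every gene with at least 1 FPKM in at least 2 libraries of the comparison, and a gene was called when its Benjamini-Hochberg adjusted p was under 0.05. All 10 genes passed this filter in each comparison. The FPKM files carry no read counts. A rough depth, read from what 1 fragment is worth in low genes with a single transcript, was 17800000 and 20400000 fragments for the NC libraries, 28200000 and 22400000 for A3B OE, and between 25700000 and 32400000 for 92.1; between 16.8% and 29.0% of these genes lay within 5% of the estimate. APOBEC3B checked the labels. It was at 35.9 and 32.3 FPKM in shCtrl, 1.98 and 2.37 in shA3B, 2.67 and 2.19 in NC, and 28.4 and 27.5 in A3B OE, with log2 fold changes of -3.47 in 92.1 and 3.08 in MEL290 (adjusted p = 2.4e-06 and 0.00078, limma). Of 8 melanocyte markers, 8 were at 1 FPKM or more in 92.1, whereas NC cells of MEL290 reached this level for MITF alone and were listed at 0 for SOX10, TYR and S100B, so the markers of the labelled lineage were largely missing from MEL290. The epithelial keratins KRT8 and KRT18 were at 1289 and 1275 FPKM in NC cells, against 0.0772 and 3.09 FPKM in shCtrl cells. The remaining epithelial markers were low in NC cells, with CDH1 at 0.286 FPKM, KRT19 at 0.524 FPKM and EPCAM listed at 0. Of the other marker lists, COL1A1 and LUM (fibroblast) and CD68 (immune) reached 1 FPKM in some group, CD3E was listed at 0 in all, and the 3 endothelial markers summed to at most 0.115 FPKM.

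All 10 genes were expressed in every library. APEX1 had the highest level of the 10 in each group and DUT the next. In shCtrl cells POLB, LIG1 and UNG followed, and MBD4 was lowest. In NC cells the order after DUT was SMUG1, XRCC1 and UNG, and LIG3 was lowest. Across the 8 libraries the highest value was 1.41 times the lowest for MBD4, the narrowest range of the 10, and 4.43 times the lowest for POLB, the widest.

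**Figure D1:**
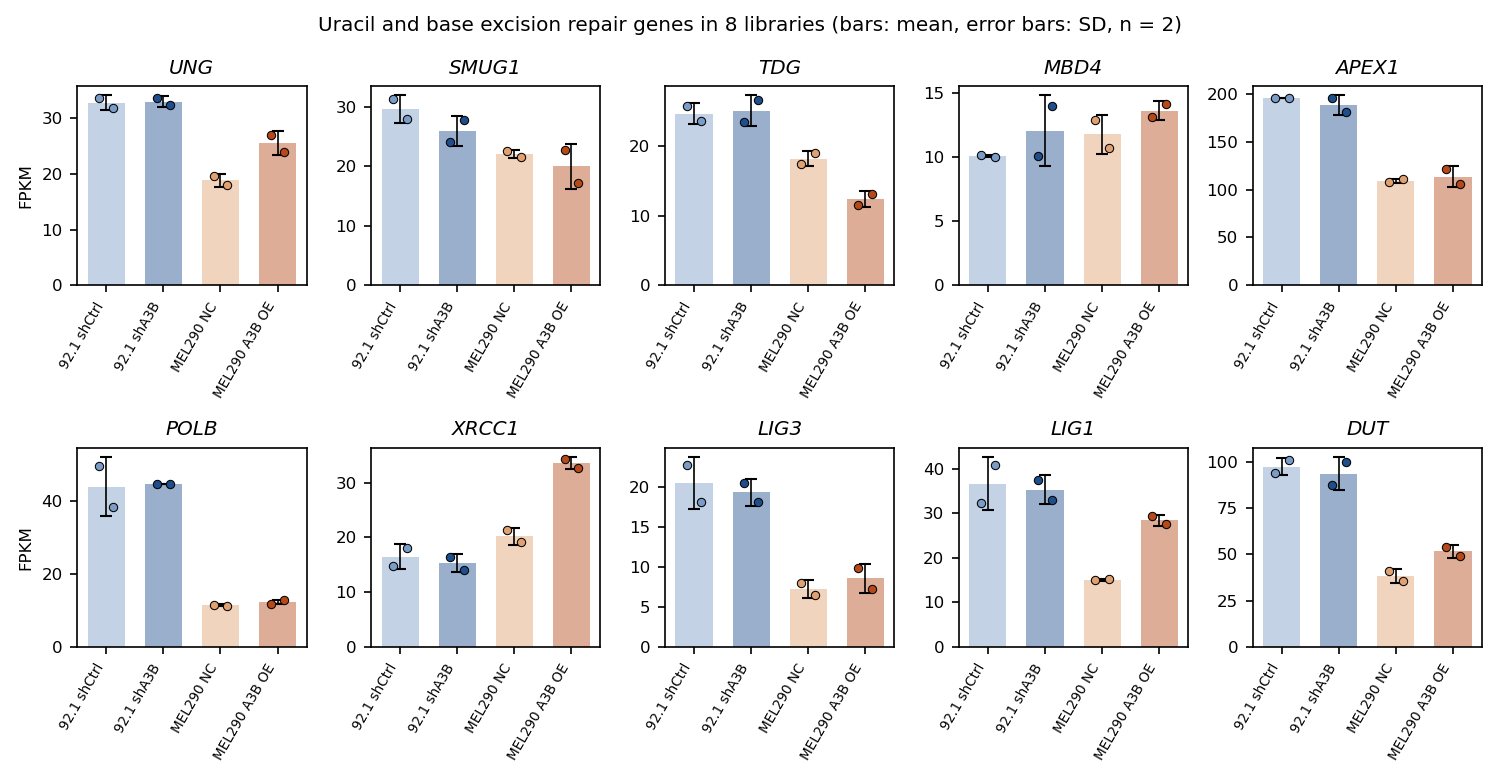
FPKM of each of the 10 genes in the 4 groups; points are the 2 libraries, bars the mean and error bars the SD (n = 2), and each panel has its own axis from 0. The blue bars of 92.1 stand at similar heights within each panel, while in MEL290 XRCC1 and LIG1 are at 33.6 and 28.5 FPKM in A3B OE against 20.2 and 15.1 FPKM in NC.

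Before any change of A3B, the question is how the lines compare. In control cells, 8 of the 10 genes were called lower in MEL290 than in 92.1 and 0 were called higher. This stands beside a very large difference between the lines in general, with 73% of the 12352 genes tested called, 33.7% higher and 39.3% lower in MEL290. The median log2 difference of the 10 genes was -0.80, against -0.08 over all genes tested. Both NC libraries lay outside the range of both shCtrl libraries for all 10 genes, which held for 87.3% of all genes. The lines differ in origin, in the control construct and in the column names of their files, and these cannot be told apart.

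POLB, the polymerase that fills the single-base gap, showed the largest of these differences. It lies on chromosome 8 of GRCh38 from 42338454 to 42371808. It was at 49.8 and 38.3 FPKM in shCtrl and at 11.6 and 11.2 FPKM in NC. The MEL290 control level was therefore 0.26 of the 92.1 level (log2 difference -1.85 ± 0.15, SE, limma adjusted p = 0.00016). The 38 tested genes within 5 Mb of POLB had a median log2 difference of -0.74, and 21.1% of them were higher in MEL290. Around the other genes called lower, such medians were negative for LIG3 (-0.25), SMUG1 (-0.22) and APEX1 (-0.12). They were positive for UNG (0.10), LIG1 (0.12), TDG (0.325) and DUT (0.68). LIG3, the ligase that partners XRCC1, was at 22.8 and 18.2 FPKM in shCtrl and at 8.01 and 6.44 FPKM in NC (log2 difference -1.39 ± 0.17, SE, limma adjusted p = 0.00079). DUT was at 94.1 and 101 FPKM in shCtrl and at 41.0 and 35.4 FPKM in NC (log2 difference -1.33 ± 0.10, SE, limma adjusted p = 0.00015). LIG1, the replication ligase, was at 32.4 and 40.8 FPKM in shCtrl and at 14.9 and 15.3 FPKM in NC (log2 difference -1.22 ± 0.14, SE, limma adjusted p = 0.00058).

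APEX1, the main endonuclease at abasic sites, was the most abundant of the 10. Its 2 shCtrl libraries were at 196.0 and 196.1 FPKM, higher than 98.2% and 98.1% of all symbols listed, and its NC libraries at 108 and 111 FPKM (log2 difference -0.84 ± 0.07, SE, limma adjusted p = 0.00018). Among the glycosylases, UNG differed most between the control lines, at 33.7 and 31.9 FPKM in shCtrl against 19.7 and 18.0 FPKM in NC (log2 difference -0.77 ± 0.10, SE, limma adjusted p = 0.0012). SMUG1, the back-up uracil glycosylase, and TDG, which acts on thymine or uracil opposite guanine, had log2 differences of -0.40 and -0.42 (adjusted p = 0.016 for both, limma). Without NC replicate 2 the adjusted p of SMUG1 was 0.087, and without NC replicate 1 that of TDG was 0.11. With a trend in GC content and length taken out, the difference of TDG was -0.67 (adjusted p = 0.0012, limma). MBD4 and XRCC1 were the 2 genes with a higher mean in NC cells. Neither was called, with log2 differences of 0.20 (95% interval -0.14 to 0.54) and 0.29 (95% interval -0.05 to 0.63). XRCC1 passed the threshold without shCtrl replicate 2 (adjusted p = 0.036) and after a trend with GC content and length was taken out (0.0025).

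The short hairpin in 92.1 asks whether uracil repair genes follow A3B down. None of the 10 genes was called with limma, and 0 had an unadjusted p under 0.05. The background was as sparse: 0.00862% of the 11605 genes tested were called, which is APOBEC3B itself, and an unadjusted p under 0.05 was found for 2.9%. The median log2 fold change of the 10 genes was -0.05, against 0.00 over all genes. Groups did not overlap for SMUG1 and APEX1, both lower in shA3B, so 2 of the 10 genes, where 28.6% of all genes had no overlap.

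UNG, the main remover of uracil from DNA, was at 33.7 and 31.9 FPKM in shCtrl and at 33.7 and 32.3 FPKM in shA3B. The 4 values interleave, with a log2 fold change of 0.01 and a 95% interval from -0.28 to 0.30. DUT was at 94.1 and 101 FPKM in shCtrl and at 87.3 and 99.9 FPKM in shA3B (log2 fold change -0.06, 95% interval -0.35 to 0.23). LIG1 had a log2 fold change of -0.05 (95% interval -0.38 to 0.29) and XRCC1 one of -0.09 (95% interval -0.44 to 0.25). The extremes of the 10 were MBD4 and SMUG1. MBD4 was at 10.1 and 10.0 FPKM in shCtrl and at 10.1 and 14.0 FPKM in shA3B, so that 1 library carried its log2 fold change of 0.22 (95% interval -0.16 to 0.60). SMUG1 was at 31.2 and 28.0 FPKM in shCtrl and at 24.1 and 27.8 FPKM in shA3B (log2 fold change -0.18, 95% interval -0.50 to 0.13). Each of the 10 intervals excludes a log2 change of 1 in either direction, and these data do not exclude smaller changes.

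In MEL290, 5 of the 10 genes were called with A3B overexpression. Of these, 4 rose (LIG1, XRCC1, DUT and UNG) and 1 fell (TDG). Over all 11611 genes tested, 17.8% were called, 10.3% higher and 7.49% lower. The median log2 fold change of the 10 genes was 0.21, against 0.00 over all genes. The groups did not overlap for 7 of the 10 genes, and 61.3% of all genes had no overlap. Markers moved beside these genes: the 5 epithelial markers summed to between 2547 and 2581 FPKM in NC and between 1679 and 1897 FPKM in A3B OE, nearly all of it KRT8 and KRT18, which both fell (log2 fold changes -0.40 and -0.66). The rest of the list was low and did not pass the filter in MEL290. CDH1 was at 0.286 FPKM in NC and higher, at 1.22 ± 1.30 FPKM (SD, n = 2), in A3B OE. EPCAM was listed at 0 in both NC libraries and had a mean of 0.064 FPKM in A3B OE. KRT19 had means of 0.524 FPKM in NC and 0.393 FPKM in A3B OE. The part of the keratin shift in the result was not tested.

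LIG1, which joins Okazaki fragments and seals the long repair patches, changed most. It lies on the long arm of chromosome 19, from 48115445 to 48170603 on the minus strand of GRCh38, and has 28 exons in its canonical transcript. It was at 14.9 and 15.3 FPKM in NC and at 29.3 and 27.6 FPKM in A3B OE. Both A3B OE libraries stood far above both NC libraries, and the mean was 88.5% higher (log2 fold change 0.87 ± 0.09, SE, limma adjusted p = 0.0037). Among the 10 genes LIG1 moved from the seventh to the fourth highest level. Even so, the A3B OE level remained below every 92.1 library, of which the lowest was at 32.4 FPKM.

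XRCC1, the scaffold that holds LIG3 and POLB at the break, lies on the same arm, from 43543311 to 43580473. It was at 21.3 and 19.1 FPKM in NC and at 34.4 and 32.7 FPKM in A3B OE, a mean 65.8% higher (log2 fold change 0.70 ± 0.10, SE, limma adjusted p = 0.0073). XRCC1 had its higher levels in MEL290, where even the NC libraries lay above every 92.1 library. The partners of XRCC1 were not called. LIG3 was at 8.01 and 6.44 FPKM in NC and at 9.83 and 7.31 FPKM in A3B OE, with overlapping groups (log2 fold change 0.21, 95% interval -0.21 to 0.64). POLB was at 11.6 and 11.2 FPKM in NC and at 11.9 and 12.8 FPKM in A3B OE (log2 fold change 0.10, 95% interval -0.16 to 0.36). The ratio of LIG1 to LIG3 FPKM was 1.86 and 2.37 in the NC libraries and 2.98 and 3.77 in the A3B OE libraries. In 92.1 it ranged from 1.42 to 2.25 in shCtrl and was 1.83 and 1.82 in shA3B.

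DUT, on chromosome 15 from 48331011 to 48343373, was at 41.0 and 35.4 FPKM in NC and at 54.2 and 49.1 FPKM in A3B OE. The mean was 35.1% higher and the groups did not overlap (log2 fold change 0.43 ± 0.10, SE, limma adjusted p = 0.038). GENCODE lists 8 pseudogenes named after DUT, and how Cufflinks divided reads among them is not known, so its values are uncertain. UNG, on chromosome 12 from 109097597 to 109126725, was at 19.7 and 18.0 FPKM in NC and at 27.1 and 24.0 FPKM in A3B OE, a mean 35.6% higher (log2 fold change 0.42 ± 0.10, SE, limma adjusted p = 0.042). UNG and SMUG1 also have annotated pseudogenes. The files give 1 value per symbol, so the nuclear and mitochondrial forms of UNG, and those of DUT, cannot be separated.

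TDG, a glycosylase that also takes part in active DNA demethylation, went the other way. It lies on chromosome 12 from 103965822 to 103988874. It was at 17.45 and 19.002 FPKM in NC and at 11.6 and 13.2 FPKM in A3B OE, and its mean fell by 32.1% (log2 fold change -0.52 ± 0.11, SE, limma adjusted p = 0.027). Each A3B OE value was lower than each NC value and than every 92.1 library. TDG has 1 annotated pseudogene, TDGP1, which may share reads. The calls of UNG, DUT and TDG passed without NC replicate 1 and were lost without any 1 of the other 3 libraries. Without NC replicate 2 their adjusted p values were 0.12, 0.12 and 0.060, without A3B OE replicate 1 they were 0.15, 0.15 and 0.10, and without A3B OE replicate 2 they were 0.077, 0.083 and 0.062. The calls of LIG1 and XRCC1 passed with each library left out, with adjusted p of at most 0.031 and 0.046.

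The remaining genes had no call. SMUG1 was at 22.6 and 21.6 FPKM in NC and at 22.7 and 17.3 FPKM in A3B OE, so the A3B OE libraries lay on either side of the NC range (log2 fold change -0.15, 95% interval -0.49 to 0.19). MBD4, which removes thymine from mismatches at methylated CpG sites, was at 12.9 and 10.7 FPKM in NC and at 13.1 and 14.2 FPKM in A3B OE (log2 fold change 0.20, 95% interval -0.10 to 0.50). APEX1 was at 108 and 111 FPKM in NC and at 121 and 106 FPKM in A3B OE (log2 fold change 0.05, 95% interval -0.16 to 0.26). These genes lie apart in the genome. SMUG1 is on chromosome 12 from 54121277 to 54189008, MBD4 on chromosome 3 from 129430947 to 129440179, APEX1 on chromosome 14 from 20455191 to 20457772, and LIG3 on chromosome 17 from 34980512 to 35009743.

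**Figure D2:**
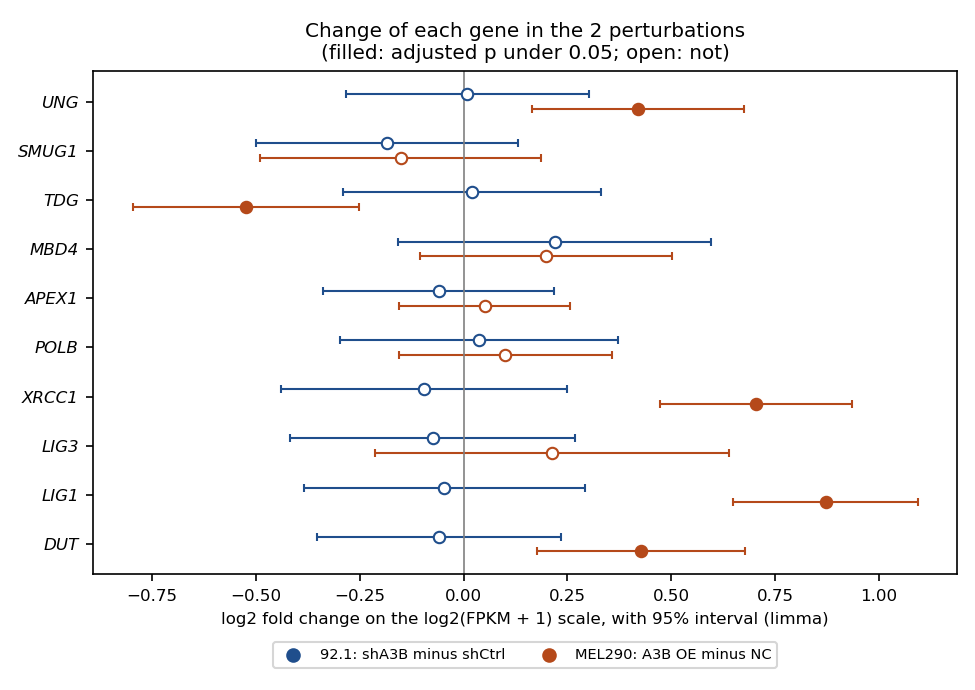
Log2 fold change of each gene with its 95% interval from limma, in 92.1 (blue, shA3B minus shCtrl) and in MEL290 (orange, A3B OE minus NC); filled points passed an adjusted p of 0.05. In 92.1 all 10 intervals span 0, and in MEL290 LIG1 (0.87), XRCC1 (0.70), DUT (0.43) and UNG (0.42) lie above 0 and TDG (-0.52) below.

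Among the glycosylase transcripts of MEL290, the UNG share was higher and the TDG share lower in both A3B OE libraries, while the sum overlapped between the groups. The summed FPKM of UNG, SMUG1, TDG and MBD4 was 72.6 and 69.3 in NC and 74.5 and 68.6 in A3B OE. UNG made up 27.2% and 26.0% of this sum in NC and 36.4% and 35.0% in A3B OE. TDG made up 24.0% and 27.4% in NC and 15.6% and 19.2% in A3B OE. SMUG1 took between 25.2% and 31.2% across the 4 MEL290 libraries. In 92.1 the sum was higher, from 91.4 to 101 FPKM, and UNG made up 33.5% and 34.1% in shCtrl and 36.8% and 32.1% in shA3B. These sums and shares are descriptions and carry no test.

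**Figure D3:**
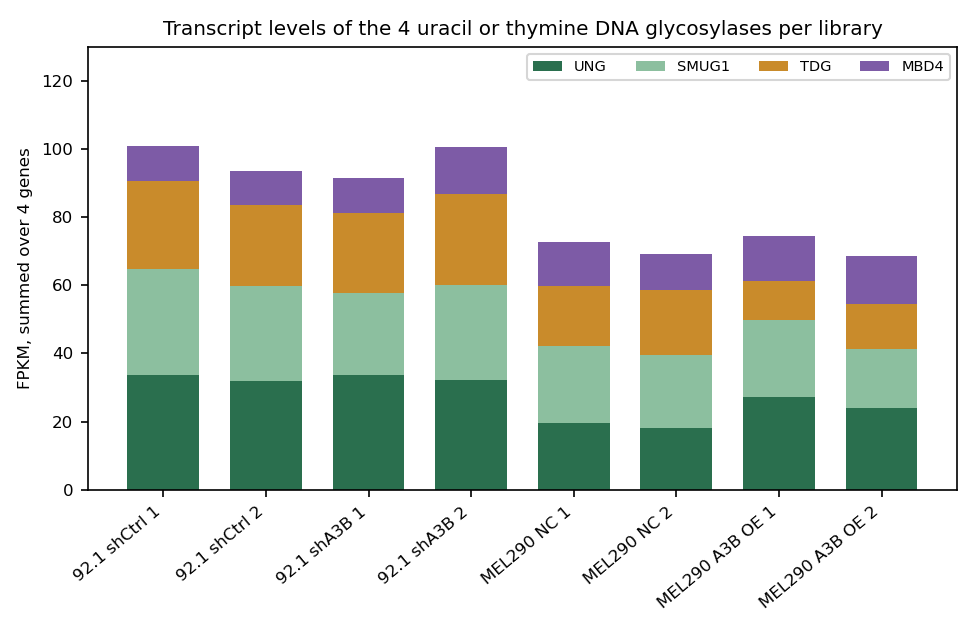
Summed FPKM of UNG, SMUG1, TDG and MBD4 in each of the 8 libraries, stacked by gene. The MEL290 bars are all between 68.6 and 74.5 FPKM high, while the UNG segment is taller and the TDG segment shorter in both A3B OE libraries than in both NC libraries.

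Set against the deaminase, UNG transcripts were close in level to APOBEC3B transcripts in both groups with much A3B. The ratio of APOBEC3B to UNG FPKM was 1.07 and 1.01 in shCtrl cells and 1.05 and 1.14 in A3B OE cells. It was 0.136 and 0.122 in NC cells and 0.0588 and 0.0734 in shA3B cells.

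Both perturbations were compared in 1 limma fit over the 8 libraries. The value was the change in MEL290 (A3B OE minus NC) less the change in 92.1 (shA3B minus shCtrl). It is called the difference between the lines below. A3B was raised in 1 line and lowered in the other, so a gene that followed A3B alike in both could also be called. APOBEC3B itself had a difference of 6.55 (adjusted p = 3.2e-06, limma). LIG1 had a difference of log2 fold changes of 0.92 (standard error 0.18, adjusted p = 0.033, limma). It was the 1 called gene of the 10, where 4.4% of 12697 genes were called. Its call was lost with the replicate block (adjusted p = 0.086), without a filter on low FPKM (0.067) and in 7 of the 8 fits with a library left out. It passed only without shCtrl replicate 1 (adjusted p = 0.037), the other 7 had adjusted p of up to 0.13, and the difference ranged from 0.75 to 1.08. XRCC1 came next (difference 0.80, adjusted p = 0.051), followed by TDG (-0.55, adjusted p = 0.11), DUT (0.49, adjusted p = 0.14) and UNG (0.41, adjusted p = 0.16). For the last 4 the changes in the perturbations are not shown to differ. Of the cell cycle lists described further on, 6 of 43 S phase and 27 of 54 G2/M genes differed in this test. Cell line, type of construct and whether A3B was raised or lowered cannot be told apart here.

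LIG1 and XRCC1 share a chromosome arm whose genes were higher in A3B OE cells as a whole. Over the other 447 tested genes of the long arm of chromosome 19, the median log2 fold change in MEL290 was 0.23 and 79.4% were higher. Within 5 Mb of LIG1 the median of 186 genes was 0.26, and within 5 Mb of XRCC1 the median of 174 genes was 0.26. LIG1 exceeded the arm's median by 0.64 and was above 94.9% of its genes, and XRCC1 exceeded it by 0.47 and was above 91.3%. For shA3B against shCtrl in 92.1 the median of the arm was -0.08. These medians were not adjusted for GC content, which is 59.9% in the canonical transcript of LIG1 and 58.5% in that of XRCC1. With GC and length trends removed, 1219 of all genes were called higher and 1281 lower in MEL290, against 1195 and 870 otherwise. The part of GC content in the shift of the arm was not tested. The genes around the other 3 called genes were centred near 0. Their median within 5 Mb was -0.03 for UNG, -0.02 for TDG and -0.02 for DUT in MEL290. UNG, SMUG1 and TDG all lie on chromosome 12, and the windows of UNG and TDG overlap, so their medians share genes.

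**Figure D4:**
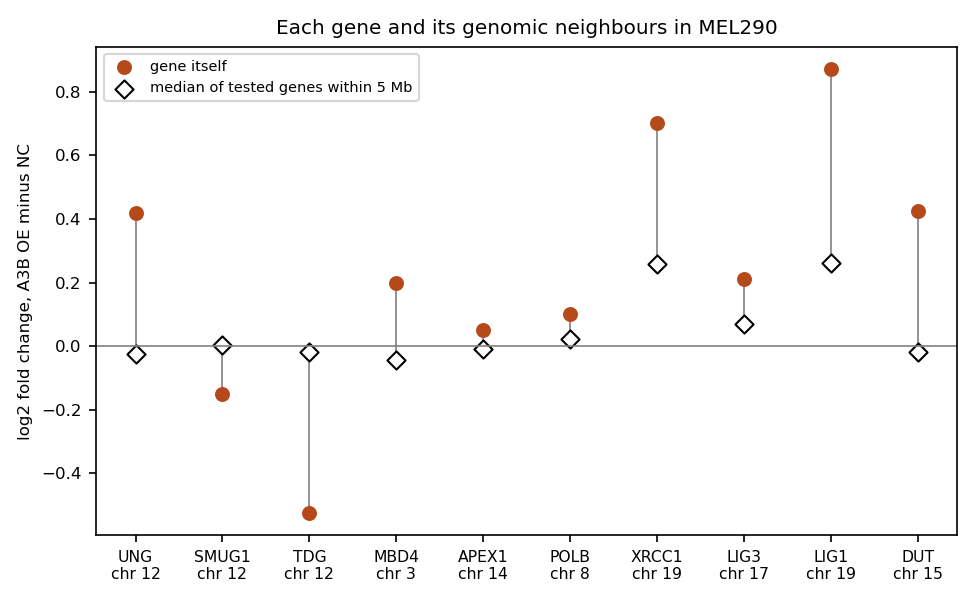
Log2 fold change in MEL290 (A3B OE minus NC) of each gene (filled circle) and the median of the tested genes within 5 Mb on either side (open diamond). The diamonds of XRCC1 and LIG1, both on chromosome 19, stand at 0.26, and those of the other 8 genes between -0.04 and 0.07.

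Promoter letters were read for the sites of E2F factors, which are known to switch on genes for DNA replication. RefSeq windows on GRCh38.p14, from 250 bases before to 50 bases after each annotated start, were given for 8 of the 10 genes, 12 windows in all. They were searched on both strands for TTTCCCGC, TTTCGCGC, TTTGCCGC and TTTGGCGC. A match was found for 3 genes, UNG, LIG1 and DUT, in 1 window each. Over all 35116 windows 3.31% held a match, and of the 15085 symbols of the files with a window 5.46% had 1 or more. Each window of the 10 genes that held a match is shown. Whether these letters bear on the levels of the genes was not tested. The matches with their flanks, 5′ to 3′ along the gene, are printed with the matching letters in capitals. The whole stretches of LIG1 and DUT, and part of that of UNG, are annotated as untranslated region of some transcripts.
UNG, chr12:109098098-109098127, plus strand, match 63 bases before a start: gagggaggtttTTTGCCGCgaaaagaccac
LIG1, chr19:48170440-48170469, minus strand, match 114 bases before the start: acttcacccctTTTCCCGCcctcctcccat
DUT, chr15:48332152-48332181, plus strand, matches 42 and 27 bases before a start: ctgGCGGGAAAtttcggtTTTGGCGCgctc

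The first DUT match is the reverse complement of TTTCCCGC, and the 2 matches do not overlap. UNG has another RefSeq start and DUT has 3 others whose windows held no match, nor did the windows of APEX1, LIG3, MBD4, TDG and XRCC1. XRCC1 rose and TDG fell without these letters in their windows. A match is a string of letters and no binding was measured in these files.

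The wider set of base excision repair genes moved in part with the 10. This list holds the glycosylases for oxidized and alkylated bases, the end-processing enzymes and the PARP proteins. Of its 17 tested genes, 6 rose and 1 fell in MEL290 with a median log2 fold change of 0.24. Over all genes tested in MEL290, 10.3% were called higher and 7.49% lower. NEIL3, a glycosylase expressed in dividing cells, was at 1.83 ± 0.0973 FPKM (SD, n = 2) in NC and 4.54 ± 0.198 FPKM (SD, n = 2) in A3B OE, a log2 fold change of 0.97 (limma adjusted p = 0.0082). HMGB1, a chromatin protein that can act in long-patch repair, rose by 0.77 and PARP1, the main sensor of strand breaks, by 0.63 on the log2 scale (adjusted p = 0.0026 and 0.023, limma). NEIL2 fell by 0.50 on the log2 scale (adjusted p = 0.046, limma). In 92.1, 0 of the 17 genes were called with limma and 0 had an unadjusted p under 0.05.

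The enzymes that supply thymidylate and deoxynucleotides sit beside DUT, because dUMP made by DUT is the substrate of thymidylate synthase. Of 12 tested genes, 7 rose and 1 fell in MEL290, with a median of 0.59, where 10.3% of all genes were called higher and 7.49% lower. The largest rises were those of RRM2, the regulatory subunit of ribonucleotide reductase (log2 fold change 1.07), TK1, the thymidine kinase of S phase (0.92), and SHMT1, which feeds one-carbon units to thymidylate synthesis (0.83), with adjusted p of 0.0037, 0.0065 and 0.0061 (limma). RRM2B, the p53-inducible reductase subunit, was at 32.2 ± 1.23 FPKM (SD, n = 2) in NC and fell to 18.9 ± 0.553 FPKM (SD, n = 2) in A3B OE, by 0.74 on the log2 scale (limma adjusted p = 0.0052). Among the mismatch repair genes, whose proteins also meet uracil opposite guanine, MSH6 rose by 0.38 on the log2 scale (adjusted p = 0.036, limma). In 92.1, 0 of the 12 supply genes and 0 of 8 mismatch repair genes were called with limma or had an unadjusted p under 0.05.

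Genes of the cell cycle moved with these results. Of the S phase list of the Seurat package, which holds UNG itself, 29 of 42 tested genes rose and 0 fell in MEL290 (median 0.62 on the log2 scale). Of its G2/M list 49 of 54 rose and 0 fell (median 0.90). Over all genes tested in MEL290, 10.3% were called higher and 7.49% lower. The lists are not separate. The S phase and G2/M lists also hold 2 genes of the wider base excision repair list, 3 supply genes and 2 mismatch repair genes. Between the control lines, 34 of 43 S phase genes were lower in NC than in shCtrl and 1 was higher, with a median log2 difference of -1.23. Of the G2/M genes 32 of 54 were lower and 8 higher (median -0.49). Over all genes tested in this comparison, 73% were called, 39.3% lower and 33.7% higher. In 92.1, 0 genes of either list were called, with medians of 0.09 and 0.11 for shA3B against shCtrl. An unadjusted p under 0.05 was found for 1 of 43 and 6 of 53 (limma), against 2.9% of all genes tested. The log2 fold change was positive for 37 S phase genes and negative for 6, and positive for 38 G2/M genes and negative for 15. The part of these genes in the changes of LIG1, DUT and UNG was not tested. In bulk RNA a larger share of cycling cells and more transcript per cell cannot be told apart.

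The genes whose pattern over the 8 libraries was most like that of UNG, by Pearson r of log2(FPKM + 1) among 12697 genes, were TYMS (0.996), AC005747.1 (0.993), KIF24 (0.993), CKS1B (0.992) and AURKB (0.992). TYMS, the thymidylate synthase, was at 129 FPKM in shCtrl, 131 in shA3B, 57.3 in NC and 88.8 in A3B OE cells (means of 2 libraries). For LIG1 they were ETS2 (0.993), POLD1 (0.992), MSC (0.991), ILKAP (0.989) and TROAP (0.987). POLD1, the catalytic subunit of the lagging-strand polymerase delta, was at 35.8, 32.6, 13.7 and 28.2 FPKM in the same order of groups. These correlations rest on 8 libraries of 4 groups that share a cell line in pairs, and carry no test.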

How the data were processed

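The authors aligned paired-end reads of 8 libraries to GRCh38 with STAR and calculated FPKM per gene with Cufflinks over an Ensembl annotation. The deposited files hold 1 FPKM value for each of 19952 symbols per library, with other column names in the 92.1 than in the MEL290 files. Tool versions and strand settings are not given in the sources used here. The library kit named in the labels does not mark strand, so reads of genes that overlap the 10 on the other strand (IFT122 with MBD4, PIP4P1 with APEX1, DUT-AS1 with DUT and others) cannot be told apart, and ACACB overlaps UNG on the same strand. The study's own test starts from reads and was not run, and count models cannot be applied to FPKM.

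Values were transformed as log2(FPKM + 1), which understates changes of low genes. Genes with at least 1 FPKM in at least 2 libraries of a fit were tested with limma 3.58.1 (lmFit, eBayes with a trend) in R 4.3.3, and p-values were adjusted by Benjamini-Hochberg over all genes tested (threshold 0.05). Each comparison used its own 4 libraries, and the difference between the lines used all 8. Intervals are 95% limma intervals. With 2 libraries against 2, an exact two-sided permutation test cannot give a p below 0.33, so none was used. Coordinates, transcript length and GC content came from GENCODE release 44, which matched 19033 symbols and all 10 genes, and promoters from RefSeq. Alternatives were limma without the trend, quantile and upper quartile scaling, other filters, a pseudocount of 0.1, removal of a GC and length trend, a replicate block, all 8 libraries in 1 fit, and each library left out. The test was tried on simulated data. The genes named are the 10, APOBEC3B, at most the 3 largest called rises and falls of each list (some are not reported here), the keratins and other markers of the fixed marker lists, and the 5 genes most like UNG and LIG1. The members and lists were chosen with earlier results of these data known. The labels tie nothing to the replicate numbers.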

Additional observations from a re-analysis of the deposited data

Results flagged for a closer look

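LIG1 was the gene of the 10 whose change with A3B overexpression in MEL290 differed from its change with A3B depletion in 92.1, by a test of the difference itself. The log2 fold change was 0.87 in MEL290 and -0.05 in 92.1, a difference of 0.92 (95% interval 0.50 to 1.33, adjusted p = 0.033, limma over 8 libraries). LIG1 was higher in both A3B OE libraries than in both NC libraries, and its shA3B libraries, at 37.5 and 33.0 FPKM, lay within the range of the shCtrl libraries. The call depended on the setting, as given for the test of the difference.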

How the results depend on the processing

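In 92.1 none of the 10 genes was called under any alternative, while the count over all genes was 2 without the trend, 0 without a filter on low FPKM, 37 with the replicate block, and between 2 and 9 in the fits that left out 1 library. Of the 5 called genes in MEL290, 3 passed without the trend (TDG, XRCC1, LIG1), 2 without the filter (XRCC1, LIG1) and between 2 and 5 in the fits that left out 1 library, and the 2065 genes called in all became 915 without the filter and between 809 and 1979 in those fits. With the replicate block the 5 calls in MEL290 and the 8 calls between the control lines were kept, and 1521 genes in all were called in MEL290. With GC and length trends removed the 5 calls in MEL290 were also kept. In that fit 2500 genes in all were called in MEL290, 1219 higher and 1281 lower, against 1195 and 870. Deviations of libraries that share a number had a correlation of 0.19 (92.1) and -0.03 (MEL290), and the numbers are not shown to pair the libraries. Between the control lines the count of members was 8 or 9 in the other alternatives and between 7 and 9 in such fits, and that of all genes between 7419 and 7867. For the difference between the lines, the 1 called gene, LIG1, became 2 (with XRCC1) with quantile normalization, upper quartile scaling and with GC and length trends removed, 0 without the filter and 0 with the replicate block, and 0 or 1 with 1 library fewer. The 559 genes in all became 328 with 1 FPKM required in every library, 915 with GC and length trends removed (541 higher and 374 lower, against 388 and 171), 223 with the replicate block, and between 36 and 286 with 1 library fewer. The fits without 1 library assume that the lone sample varies like the other group.

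Sign changes occurred only in values that were not called. With GC and length trends removed, the changes in 92.1 were -0.0765 for TDG, -0.0291 for POLB and 0.0281 for LIG1. The difference between the lines for SMUG1 was -0.0126 with quantile normalization and -0.0175 with those trends removed. With a library left out, the values in 92.1 ran from -0.0307 to 0.0483 for UNG, -0.0656 to 0.11 for TDG, -0.15 to 0.22 for POLB, -0.23 to 0.0387 for XRCC1, -0.23 to 0.0823 for LIG3, -0.21 to 0.12 for LIG1 and -0.16 to 0.0375 for DUT, and in MEL290 from -0.34 to 0.0356 for SMUG1 and -0.0442 to 0.15 for APEX1. The differences between the lines ran from -0.15 to 0.22 for SMUG1, -0.24 to 0.20 for MBD4 and -0.12 to 0.25 for POLB. Of the other values of single genes, XRCC1 was called between the control lines with GC and length trends removed (0.64, adjusted p = 0.0025), and the called difference of TDG moved from -0.42 to -0.67 in the same fit. All 10 genes were above 6 FPKM in every library, and depth limits the genes near 1 FPKM more.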

Other observations

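The control lines were also compared in the other lists. Of all 12352 genes tested between them, 39.3% were called lower and 33.7% higher in NC cells. Of 17 tested genes of the wider base excision repair list, 9 were lower and 2 higher in NC cells of MEL290 than in shCtrl cells of 92.1 (limma). Among the lower genes, the largest differences were those of PARP1, the strand break sensor, at 29.0 ± 1.98 against 193 ± 2.85 FPKM (SD, n = 2 each; log2 difference -2.69), FEN1, the flap endonuclease of long-patch repair (-1.71), and NTHL1, a glycosylase for oxidized pyrimidines (-1.69). NEIL1, which acts on similar lesions as NTHL1, was higher in NC cells, at 12.8 ± 2.96 against 1.94 ± 0.265 FPKM (SD, n = 2 each; log2 difference 2.21), and so was APTX, which clears aborted ligation ends (0.42).

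Of 12 supply genes, 8 were lower and 3 higher in NC cells. DCTPP1, which clears modified dCTP, had a log2 difference of -1.87 and TYMS one of -1.16. SAMHD1, which degrades deoxynucleotides outside S phase, was higher in NC cells, at 10.3 ± 0.44 against 2.65 ± 0.37 FPKM (SD, n = 2 each; log2 difference 1.63), as were RRM2B (1.49) and DCTD (0.62). Of 8 mismatch repair genes, 4 were lower, with EXO1, the excision nuclease, at -2.64, and 3 were higher. All differences named here had an adjusted p under 0.05 (limma), where 73% of all genes did.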
